A study of Mus musculus with 35 samples.

Results

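Actb, Tbp, Sdha, B2m, Hprt, Gusb and Ywhaz are genes whose mRNA is often measured beside a gene of interest in quantitative PCR, so that amounts can be expressed relative to a transcript taken to be steady. The rule that named these 7 genes was that use and held no measured value, although earlier results of these data were known when it was written. All 7 were present among the 48709 genes of the count tables, and all 7 were among the 13819 genes that passed the filter on low counts and were tested. Their mRNA was followed by RNA-seq in OT-I CTLs, mouse cytotoxic CD8+ T cells that carry a transgenic receptor for an ovalbumin peptide, activated through CD3 and CD28 and expanded with IL-2 before the experiment. CTLs of 5 biological replicates were sampled at the start (0 h) and again after 24 h of culture. Those cultures were set to pH 7.4, 7 or 6.6, and at each pH 1 received mouse IL-2 (200 IU/mL) and 1 did not, so that there were 7 groups of 5 libraries. Medium was acidified with HCl, and all cells, those of the 0 h group included, had been grown in IL-2 until then. These were in vitro cultures of cells with 1 receptor specificity, freed of dead cells on Ficoll before RNA extraction. The comparison addressed here is whether acid or IL-2 changed the level of each reference gene, since a reference that moves with the treatment changes every ratio formed with it.

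A reference gene serves its purpose when its mRNA keeps a constant share of the RNA in all conditions compared. The 7 genes come from unrelated processes. Actb encodes beta-actin of the cytoskeleton, Tbp encodes the TATA-binding protein that nucleates transcription complexes, and Sdha encodes the flavoprotein subunit of succinate dehydrogenase in the mitochondrial respiratory chain. Hprt recycles purine bases into nucleotides, Gusb is the lysosomal enzyme beta-glucuronidase, B2m is the light chain of MHC class I molecules, and Ywhaz is an adaptor of the 14-3-3 family that binds phosphorylated proteins. IL-2 is a growth factor for activated T cells that raises biosynthesis, cell size and proliferation.

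Reads assigned to genes numbered 16721319 to 34033340 per library, with a median of 24730020. Values are given as CPM (reads of a gene in a library of a fixed common size) after scaling by TMM, a factor per library that brings the bulk of genes to a common level. A CPM is a share of a library: no measure of RNA per cell was used here, and in bulk samples fewer cells of a type and less RNA per cell cannot be told apart. Cd3e lay between 373 and 631 CPM and Cd8a between 674 and 1596 CPM in all libraries, while Cd4 stayed at or below 2.48 CPM and the B cell, macrophage and red cell markers each at or below 0.827 CPM. Among NK cell markers Ncr1 stayed at or below 0.0694 CPM, whereas Klrb1c ranged from 8.27 to 94.9 CPM and was highest at 0 h. The cytotoxic genes Gzmb (36.7 to 9006 CPM) and Prf1 (11.1 to 685 CPM) varied widely, and the summed level of the 7 CD8 T cell markers was 2639 to 3494 CPM in the groups without IL-2, 3265 to 4612 CPM at pH 6.6 with IL-2 and 7831 to 13170 CPM in the other 3 groups. The share of alignments outside genes also differed by group, at 2.58 to 5.95% at 0 h and with IL-2 at pH 7.4 and pH 7, 7.34 to 8.83% at pH 6.6 with IL-2 and 6.47 to 11.1% without IL-2. The part of these marker and alignment differences in the results on the reference genes was not tested.

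Acid in the presence of IL-2 lowered all 7 genes, and with IL-2 at pH 7.4 and pH 7 all but Tbp passed as higher. At pH 7.4 the estimate was 0.16 for Tbp (edgeR adjusted p = 0.0635) and 0.29 for B2m (adjusted p = 0.0131) on the log2 scale. Whether these 2 genes differ in their response was not tested. Below, Actb, Hprt and Gusb are called mobile and Tbp and Sdha steady, as a description of their spread over the 35 libraries. When IL-2 cultures at pH 6.6 were set against those at pH 7.4, all 7 passed the test and all 7 were lower in acid, where 76.3% of all genes tested passed and 40.9% passed as lower. The decreases ranged from 1.21-fold for Sdha to 3.18-fold for Gusb. Without IL-2 the same change of pH gave 3 genes past the threshold, Actb and Gusb lower and Ywhaz higher, against 67% of all genes, 35.4% as lower and 31.6% as higher. The milder change from pH 7.4 to pH 7 gave 1 gene with IL-2 (Gusb, lower, with 19% of all genes passing and 9.83% as lower) and none without it (1.68% of all genes). IL-2 raised 6 genes at pH 7.4 (all but Tbp, with 80.4% of all genes passing and 39.3% passing as higher), 6 at pH 7 (all but Tbp, 77.2% and 37.6%) and 3 at pH 6.6 (Actb, Gusb and Hprt, 23.7% and 13.2%). All 7 differed among the 7 groups when any difference was tested, as did 96.9% of all genes. With most genes passing in most of these comparisons, the number of members that passed says little by itself, and their directions and sizes are given gene by gene. The comparisons share groups with each other, so their counts are not independent.

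**Figure D1:**
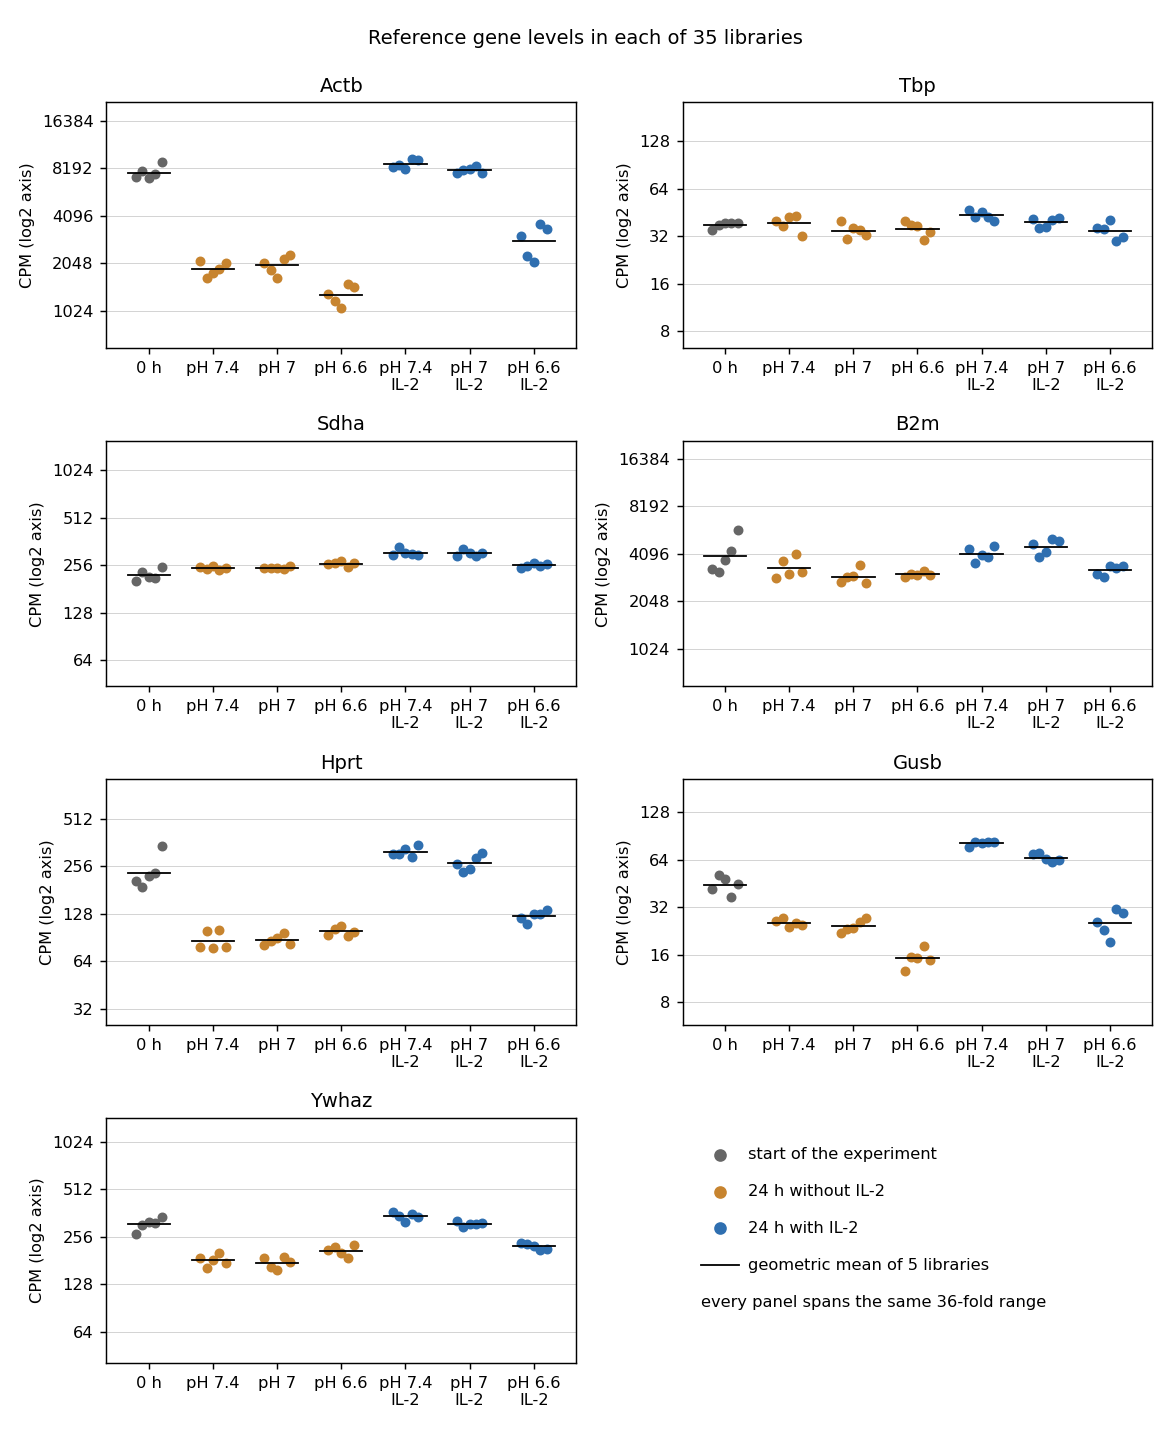
Level of each reference gene in each of the 35 libraries, in CPM on a log2 axis that spans the same fold range in every panel. Points are libraries, lines are geometric means of 5 libraries, and colours mark the start (grey), 24 h without IL-2 (orange) and 24 h with IL-2 (blue). Actb, Hprt and Gusb drop from the blue groups at pH 7.4 and pH 7 to the blue group at pH 6.6, while Tbp and Sdha stay within a narrow band in all 7 groups.

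Actb had the largest swing of the 7. With IL-2 at pH 7.4 the replicates, in the order 1 to 5 here and throughout, gave 8335, 8556, 8064, 9377 and 9233 CPM, and at pH 6.6 with IL-2 they gave 3033, 2293, 2071, 3628 and 3390 CPM. The 5 acid libraries all lay below the 5 neutral ones, and replicates 2 and 3 were the lowest of the acid group. The means were 8713 ± 569.8 CPM and 2883 ± 678 CPM (SD, n = 5), a log2 fold change of -1.62 (95% interval -1.80 to -1.43, adjusted p = 1.35e-16), that is a 3.06-fold decrease, lower in 5 of 5 replicates. Without IL-2 at pH 7.4 Actb was at 2127, 1644, 1781, 1891 and 2064 CPM, and at pH 6.6 at 1314, 1183, 1065, 1516 and 1447 CPM. These groups did not overlap either, and Actb was 1.47-fold lower at pH 6.6 (log2 -0.55, interval -0.74 to -0.37, adjusted p = 3.45e-06). IL-2 raised Actb 4.59-fold at pH 7.4 (log2 2.20, adjusted p = 3.29e-20), 4.03-fold at pH 7 (7674 to 8501 against 1644 to 2297 CPM, adjusted p = 4.72e-19) and 2.19-fold at pH 6.6 (log2 1.13, adjusted p = 4.47e-11). At 0 h, when the cells had just left IL-2 culture, the replicates gave 7188, 7822, 7084, 7520 and 8938 CPM. Actb therefore sat in 3 tiers, with the 0 h group and the IL-2 groups at pH 7.4 and pH 7 on top, pH 6.6 with IL-2 next, and the groups without IL-2 below. Neighbouring groups overlapped in 4 of the 6 steps of that order, and did not between 0 h and pH 6.6 with IL-2, nor between pH 7.4 and pH 6.6 without IL-2. The fold from the highest to the lowest group mean was 6.72.

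Hprt, the purine salvage enzyme, followed the same tiers. The libraries at pH 7.4 with IL-2 gave 308, 308, 331, 294 and 349 CPM and those at pH 6.6 with IL-2 120.2, 109.9, 128, 127 and 136 CPM. No library of the acid group reached the lowest neutral one, and the decrease was 2.56-fold (log2 -1.36, interval -1.57 to -1.15, adjusted p = 1.48e-13). Without IL-2 the values were 79.1, 98.99, 77.7, 101 and 79.4 CPM at pH 7.4 and 94.6, 102, 108, 92.8 and 98.8 CPM at pH 6.6, which overlapped, and the difference did not pass the threshold (log2 0.19, interval -0.022 to 0.40, adjusted p = 0.108). It passed, as an increase of 0.23, under RLE size factors and under DESeq2. IL-2 raised Hprt 3.64-fold at pH 7.4 (adjusted p = 3.92e-17) and 3.08-fold at pH 7 (adjusted p = 1.71e-15). At pH 6.6 the increase was 1.25-fold (adjusted p = 0.0218), and this call was lost without replicate 1, 3 or 4 (log2 0.35, 0.33 and 0.29). The 0 h libraries were at 207, 189, 221, 234 and 346 CPM, with replicate 5 well above the others. Of all 35 libraries, that one had the highest share aligned to several places (48.3%) and the lowest share outside genes (2.58%).

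Gusb, the lysosomal glucuronidase, had the lowest counts of the 3 mobile genes, with 299 to 2400 reads per library. It measured 76.7, 83.3, 82.4, 83.01 and 83.2 CPM at pH 7.4 with IL-2 and 25.7, 23.1, 19.4, 31.1 and 29.6 CPM at pH 6.6 with IL-2. The groups were far apart, with a 3.18-fold decrease (log2 -1.67, interval -1.87 to -1.47, adjusted p = 2.23e-16). Without IL-2 it measured 26.1, 27.3, 23.9, 25.4 and 24.7 CPM at pH 7.4 and 12.6, 15.4, 15.3, 18.1 and 14.9 CPM at pH 6.6, again without overlap (1.67-fold lower, log2 -0.74, adjusted p = 9.62e-08). Gusb was also the gene that passed between pH 7 and pH 7.4 with IL-2, where it measured 69.8, 70.6, 64.8, 62.3 and 63.9 CPM at pH 7, below all 5 neutral libraries (log2 -0.30, interval -0.49 to -0.11, adjusted p = 0.0234). That call was lost without replicate 2, 3, 4 or 5 in turn (log2 -0.32 to -0.27) and with library totals as the scale (-0.25). IL-2 raised Gusb 3.20-fold at pH 7.4, 2.72-fold at pH 7 and 1.69-fold at pH 6.6 (adjusted p = 8.71e-17, 5.86e-15 and 7.96e-07). Of the 6 steps in the order of its group levels only 2 overlapped, fewer than for any other member.

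Sdha, the succinate dehydrogenase subunit, moved little, and its replicates lay close together. It measured 299, 333, 307, 304 and 299 CPM at pH 7.4 with IL-2 and 246, 255, 265, 252 and 260.3 CPM at pH 6.6 with IL-2. Those groups did not overlap, and the decrease was 1.21-fold (log2 -0.27, interval -0.38 to -0.16, adjusted p = 2.49e-05). Without IL-2 it measured 248, 243, 252, 239 and 246 CPM at pH 7.4 and 259, 264, 274, 250 and 263 CPM at pH 6.6 (log2 0.093, interval -0.013 to 0.20, adjusted p = 0.114), a difference that passed as an increase of 0.13 under DESeq2 and 0.14 under RLE size factors and that turned to -0.060 with library totals as the scale. IL-2 raised it 1.25-fold at pH 7.4 and 1.23-fold at pH 7 (adjusted p = 1.03e-06 and 4.02e-06) and gave a fold of 0.976 at pH 6.6 (interval of log2 -0.14 to 0.071, adjusted p = 0.665). The spread within groups was the smallest of the 7 genes, with an SD of log2 CPM of 0.061. The 0 h libraries (204, 232, 216, 213 and 249.9 CPM) were the lowest group, and IL-2 culture at pH 7.4 for 24 h raised Sdha 1.38-fold above them (adjusted p = 3.56e-09).

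B2m, the MHC class I light chain, was abundant in every library. It measured 4421, 3596, 4000, 3924 and 4609 CPM at pH 7.4 with IL-2 and 3031, 2931, 3431, 3326 and 3412 CPM at pH 6.6 with IL-2. Every acid library lay below every neutral one, although the margin was small, and the decrease was 1.27-fold (log2 -0.35, interval -0.57 to -0.13, adjusted p = 0.00359). Without replicate 1 this call was lost (log2 -0.23). Without IL-2 it measured 2866, 3704, 3057, 4058 and 3127 CPM at pH 7.4 and 2928, 3071, 3024, 3175 and 3002 CPM at pH 6.6, which overlapped (log2 -0.14, interval -0.36 to 0.074, adjusted p = 0.239). The increase with IL-2 was 1.54-fold at pH 7 (log2 0.63, adjusted p = 3.18e-06), where all 5 replicates were higher, and 1.22-fold at pH 7.4 (adjusted p = 0.0131), where 3 of 5 were higher and where the call was lost without replicate 1 (log2 0.14) or with library totals as the scale (0.13). The 0 h libraries spanned 3163 to 5757 CPM, the widest group of this gene, with replicate 5 highest, as for Hprt.

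Ywhaz, the 14-3-3 adaptor, stood between the steady and the mobile genes. It measured 368, 346, 318, 358 and 341 CPM at pH 7.4 with IL-2 and 234, 229, 224, 212 and 213 CPM at pH 6.6 with IL-2. The groups did not overlap, and the decrease was 1.55-fold (log2 -0.64, interval -0.78 to -0.49, adjusted p = 1.54e-09). Without IL-2 the direction was opposite, from 187, 162, 183, 202 and 173 CPM at pH 7.4 to 212, 221, 201, 187 and 228 CPM at pH 6.6. These groups overlapped, replicate 4 went the other way, and the 1.16-fold increase (log2 0.21, adjusted p = 0.0116) was lost without replicate 2 (0.12) or 5 (0.17) and with library totals as the scale (0.056). IL-2 raised Ywhaz 1.91-fold at pH 7.4 and 1.76-fold at pH 7 (adjusted p = 1.69e-13 and 4.75e-12), and gave 1.06-fold at pH 6.6 (interval of log2 -0.061 to 0.23, adjusted p = 0.423).

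Tbp, the TATA-binding protein, varied least over the 35 libraries. It measured 46.9, 42.3, 45.5, 42.5 and 40.1 CPM at pH 7.4 with IL-2 and 36.1, 35.4, 40.7, 29.8 and 31.8 CPM at pH 6.6 with IL-2. The groups overlapped through replicate 3 of the acid group and replicate 5 of the neutral group, yet each replicate was lower in acid and the 1.25-fold decrease passed (log2 -0.32, interval -0.49 to -0.16, adjusted p = 6.66e-04). Without IL-2 the values were 39.9, 37.01, 42.5, 42.7 and 31.96 CPM at pH 7.4 and 39.8, 37.7, 37.1, 30.3 and 34 CPM at pH 6.6 (log2 -0.12, interval -0.28 to 0.051, adjusted p = 0.212). With library totals as the scale this difference passed as a decrease of 0.27. IL-2 changed the level by 1.12-fold at pH 7.4 (log2 0.16, interval -0.0013 to 0.33, adjusted p = 0.0635), 1.13-fold at pH 7 (adjusted p = 0.0519) and 0.970-fold at pH 6.6 (adjusted p = 0.743), of which none passed the threshold. The first passed without replicate 4 (0.21) and the second without replicate 3 (0.24) or with only the groups compared in the fit (0.19). All 6 steps in the order of its group levels overlapped, as was also the case for B2m. Counts of Tbp were low, at 626 to 1236 reads per library, and its SD within groups, 0.134 on the log2 scale, was larger than that of Sdha.

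**Figure D2:**
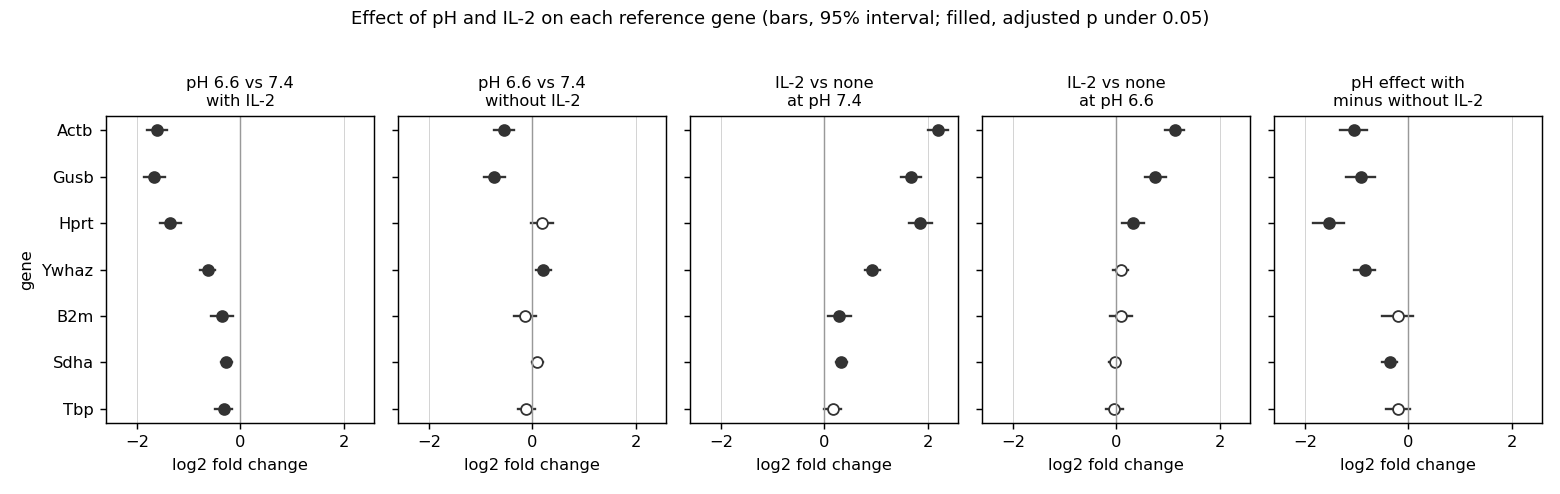
Log2 fold change of each reference gene in 5 comparisons, with 95% intervals from the edgeR quasi-likelihood fit; filled points have an adjusted p under 0.05. All 7 points lie below 0 for pH 6.6 against pH 7.4 with IL-2, from -1.67 for Gusb to -0.27 for Sdha, whereas without IL-2 they lie on both sides of 0.

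Whether the effect of acid depended on IL-2 was tested as an interaction, the difference between the pH 6.6 effect with and without IL-2. The interaction passed for 5 of the 7 genes and for 67% of all genes, 32.8% as negative, so the number of members says little by itself. It was negative and passed for Hprt (-1.54, interval -1.84 to -1.25, adjusted p = 4.80e-11), Actb (-1.06, adjusted p = 1.09e-08), Gusb (-0.92, adjusted p = 6.16e-07), Ywhaz (-0.85, adjusted p = 9.99e-09) and Sdha (-0.36, adjusted p = 6.76e-05). The Sdha call was lost with library totals as the scale (-0.14). Tbp (-0.21, interval -0.44 to 0.028) and B2m (-0.21, interval -0.51 to 0.10) did not pass, and these intervals leave their dependence on IL-2 undecided. Library totals as the scale moved the median interaction of all genes by 0.227 on the log2 scale and turned the estimates of Tbp and B2m to 0.018 each.

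At pH 7 no estimate exceeded 0.30 in size on the log2 scale against pH 7.4. With IL-2, the log2 fold changes were -0.24 for Hprt (interval -0.45 to -0.034), -0.16 for Ywhaz (-0.31 to -0.015), -0.15 for Tbp (-0.31 to 0.019), 0.15 for B2m (-0.068 to 0.36), -0.11 for Actb (-0.30 to 0.071) and -0.016 for Sdha (-0.12 to 0.091), and none of these 6 passed after adjustment. Hprt and B2m passed when the fit held only the 2 groups compared, and Hprt also without replicate 5. Without IL-2 the 7 estimates ran from -0.19 for B2m to 0.073 for Actb. In the fits of all 35 libraries 0 passed under edgeR or DESeq2, with 0 at an unadjusted edgeR p under 0.05. B2m passed (-0.19) when the edgeR fit held only the 2 groups compared. Actb at pH 7 with IL-2 gave 7702, 8025, 8151, 8501 and 7674 CPM and at pH 7 without IL-2 2055, 1863, 1644, 2186 and 2297 CPM.

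The reference genes also differed between 0 h and 24 h. Cells at 0 h had just left IL-2 culture, so 24 h without IL-2 differed from 0 h in both time and IL-2. These cannot be told apart in that comparison. Against 0 h, 24 h without IL-2 at pH 7.4 lowered 5 genes and raised Sdha, with 75.2% of all genes passing, 38.3% as lower and 36.9% as higher. Actb fell 4.06-fold (log2 -2.02, adjusted p = 9.19e-19), Hprt 2.71-fold, Gusb 1.76-fold, Ywhaz 1.70-fold and B2m 1.19-fold (adjusted p = 0.0321), and Sdha rose 1.10-fold (adjusted p = 0.0168). The B2m call was lost without replicate 1 (-0.22), 3 (-0.24) or 5 (-0.078) and the Sdha call without replicate 3 (0.12) or 4 (0.13). With IL-2 at pH 7.4, 5 genes rose (59.9% of all genes passing and 29% as higher): Gusb 1.82-fold, Sdha 1.38-fold, Hprt 1.34-fold, Tbp 1.15-fold and Ywhaz 1.12-fold. The calls of Tbp (adjusted p = 0.0341) and Ywhaz (adjusted p = 0.0458) were lost without replicate 1 (0.13 and 0.082) or 2 (0.20 and 0.15), that of Tbp also without replicate 3 (0.21) and that of Ywhaz without replicate 4 (0.16). Actb (0.18, interval -0.009 to 0.36) and B2m (0.038, interval -0.18 to 0.25) did not pass.

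Over all 35 libraries the SD of log2 CPM ordered the genes from Tbp (0.164) through Sdha (0.170), B2m (0.283), Ywhaz (0.387), Hprt (0.780) and Gusb (0.835) to Actb (1.10). The median SD of all genes tested was 0.554, so that Tbp, Sdha, B2m and Ywhaz varied less than the median gene and Hprt, Gusb and Actb varied more. Of all genes tested, 2.15% had a lower SD than Tbp, 2.56% a lower SD than Sdha, 16.4% lower than B2m, 31.1% lower than Ywhaz, 68.7% lower than Hprt, 72.2% lower than Gusb and 84.0% lower than Actb. Among genes whose mean log2 CPM lay within 0.5 of the member's, the shares were 3.79% for Tbp, 4.77% for Sdha and 49.8% for Ywhaz. They were 89.2% for Hprt and 86.9% for Gusb, while Actb and B2m had few genes of similar level. Against genes of similar level Ywhaz thus lay near the middle. All these shares are descriptions, since the 35 libraries share replicates and groups. The geNorm measure M, the mean SD of a gene's log2 ratios to the others, gave another order when all 7 genes were kept, with Ywhaz lowest (0.4495), then B2m (0.487), Hprt (0.545), Tbp (0.549), Sdha (0.552), Gusb (0.593) and Actb (0.778). In a sequence that removes at each step the gene with the largest M and computes M again, Actb left first (M = 0.778), then Gusb (0.628), Hprt (0.604), Ywhaz (0.311) and B2m (0.259), and the last pair was Tbp and Sdha, whose ratio had an SD of 0.184. This measure does not use the TMM factors. The order of SDs was Actb, Gusb, Hprt, Ywhaz, B2m, Sdha and Tbp from the widest, the same as the order of removal down to the last pair. Of the 10 comparisons, the 95% interval lay within 0.5 log2 units of no change in 10 for Tbp, 8 for Sdha, 6 for B2m, 5 for Ywhaz, 3 each for Actb and Hprt and 2 for Gusb.

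**Figure D3:**
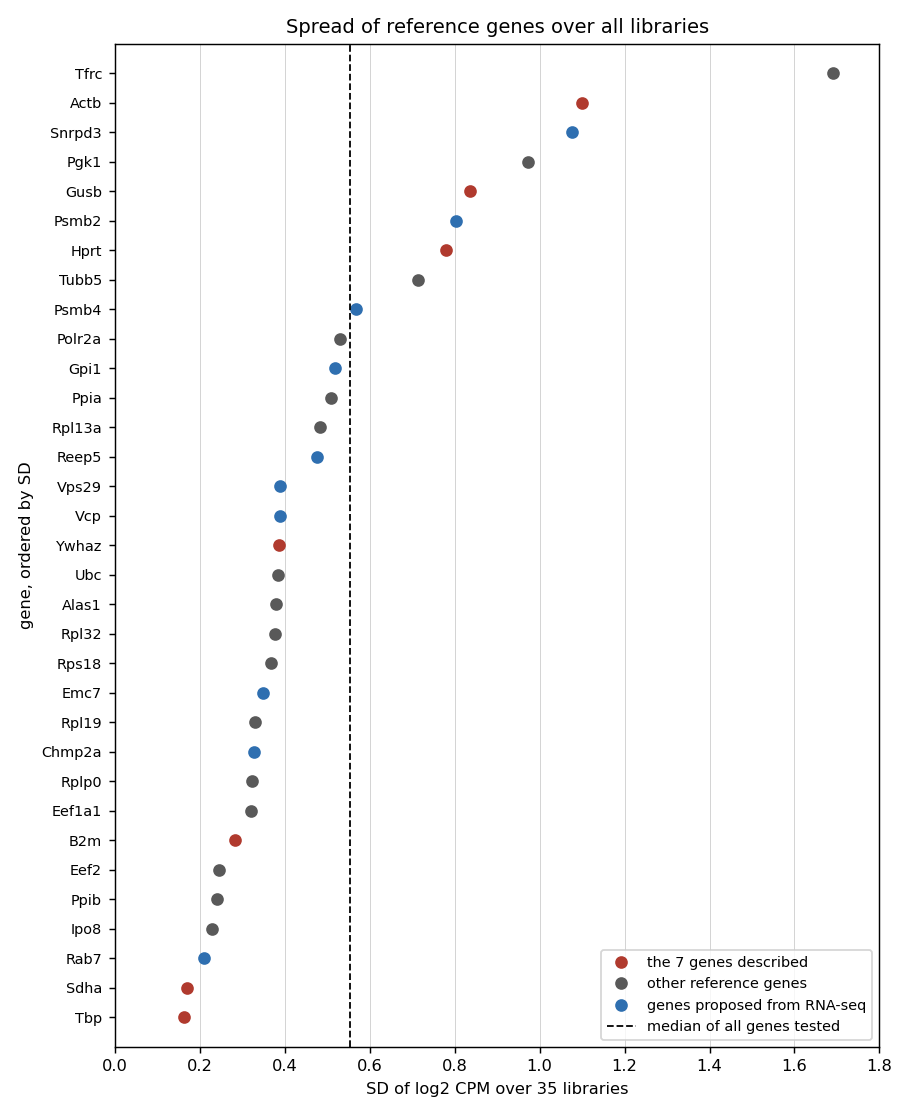
SD of log2 CPM over the 35 libraries for the 7 genes described (red), 16 of 18 other reference genes (grey) and 10 genes proposed as references from RNA-seq of human tissues (blue); the dashed line is the median of all genes tested, 0.554. Tbp (0.164) and Sdha (0.170) lie at the narrow end, and Actb (1.10) lies at the wide end.

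Other genes used as references covered a similar range. Among 18 further ones the median SD was 0.379, against 0.387 for the 7 genes, and Tfrc, the transferrin receptor that imports iron into growing cells, had the highest (1.69). Of these 18 at pH 6.6 with IL-2, 8 rose and 9 fell, with a median log2 fold change of -0.12 against -0.067 over all genes tested. The ribosomal protein genes Rpl19 (0.61) and Rpl32 (0.61) rose, and Tfrc (-3.17) fell. All 10 genes that had been proposed from RNA-seq of human tissues rose with IL-2 at pH 7.4, where 39.3% of all genes passed as higher, and 9 of 10 fell at pH 6.6 with IL-2, where 40.9% passed as lower. Among them Snrpd3, a spliceosome core protein, fell by 2.19 and Psmb2, a proteasome subunit, by 1.47 on the log2 scale, while Emc7 fell by 0.36 and Gpi1 did not pass (0.13, adjusted p = 0.317). Of the 5827 genes whose log2 CPM averaged 5 or more, the smallest SDs belonged to Lamp1 (0.052), a lysosomal membrane protein, Mark3 (0.063), Gosr2 (0.080), Glud1 (0.085), Senp2 (0.085), Faf2 (0.088), Ilkap (0.093), Fbxo9 (0.093), Arfgap2 (0.096) and Fgfr1op2 (0.098). These 10 were picked for this value, so their SDs are descriptions of these libraries.

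Levels can be compared between genes only per length of transcript. In CPM per kilobase of the principal transcript, Actb was at 4538 and B2m at 4779 at pH 7.4 with IL-2, and at 680 and 3535 at pH 6.6 without IL-2, so that the means lay close together in the first group, where B2m was the higher in 3 of 5 replicates, and apart in the second, where it was the higher in 5 of 5. On the same scale at pH 7.4 with IL-2, Hprt was at 247, Sdha at 106, Ywhaz at 105 and Gusb at 30.4. Tbp was at 3.40 with the longest of its 3 principal transcripts (12794 bases) and at 22.99 with the shortest (1891 bases), and Ywhaz at 163 with its shortest.

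Ratios between the 7 genes showed which pairs held together. The SD of the log2 ratio over 35 libraries was lowest for Tbp and Sdha (0.184), Tbp and B2m (0.252), and B2m and Ywhaz (0.262), and among the mobile genes 0.382 for Hprt and Gusb, 0.417 for Actb and Gusb and 0.468 for Actb and Hprt. It was highest for Actb and Sdha (1.05), whose mean ratio differed 6.99-fold between groups. Across the 35 libraries, which share replicates and groups, Pearson's r of log2 CPM was 0.944 for Actb with Gusb, 0.932 for Actb with Hprt, 0.952 for Hprt with Ywhaz and 0.890 for Hprt with Gusb, and 0.392 for Tbp with Sdha. Each member also had close companions among the 8997 genes whose log2 CPM averaged 3 or more. By Pearson's r over the same 35 libraries these were Ifrd2 (0.990) and Ergic1 (0.988) for Actb, Thyn1 (0.992), Nop10 (0.990) and Cct6a (0.989) for Hprt, and Prpf31 (0.989), Ap1s1 (0.987) and Faap24 (0.985) for Gusb. For Ywhaz they were Rsl24d1 (0.977), Sar1b (0.974) and Hnrnpk (0.974), for B2m Emc2 (0.932), Arl4a (0.917) and Anp32a (0.889), for Sdha Dck (0.919), Mgme1 (0.901) and Ipp (0.898), and for Tbp Brcc3 (0.857), Ikzf1 (0.837) and Snx4 (0.835).

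The start of each promoter is shown to set 2 of the mobile genes, Hprt and Gusb, beside the steady ones and B2m. Hprt and Gusb were both lower in acid with IL-2 and both higher with IL-2, but without IL-2 acid gave 0.19 for Hprt (not past the threshold) and -0.74 for Gusb, and their mean ratio differed 1.92-fold between groups. The RefSeq promoter table (GRCm38.p6) held an entry for 5 of the 7 genes, namely Tbp, Sdha, B2m, Hprt and Gusb. Each sequence runs 5′ to 3′ on the strand of the gene, from 140 bases before the annotated start to 10 bases after it, and capitals mark matches on either strand to 5 motifs, none of which overlapped another in these sequences. The TATA box, searched as TATAAA, is bound by the product of Tbp itself. The GC box, searched as GGGCGG, is bound by factors of the Sp family. The CCAAT box was searched under the letters of its name. The cAMP response element, bound by CREB and related factors, was searched as TGACGTCA. The E box, which Myc is known to bind, was searched as CACGTG. Hprt and Gusb come first, then the steady genes Tbp and Sdha, then B2m.
Hprt is at chrX:52987938-52988087 on the plus strand, Gusb at chr5:130003040-130003189 on the minus strand, Tbp at chr17:15499748-15499897 on the plus strand, Sdha at chr13:74350231-74350380 on the minus strand and B2m at chr2:122147547-122147696 on the plus strand.
Hprt: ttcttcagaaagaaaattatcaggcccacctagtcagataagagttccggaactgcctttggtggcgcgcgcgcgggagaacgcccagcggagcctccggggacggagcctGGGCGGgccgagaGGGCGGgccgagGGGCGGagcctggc
Gusb: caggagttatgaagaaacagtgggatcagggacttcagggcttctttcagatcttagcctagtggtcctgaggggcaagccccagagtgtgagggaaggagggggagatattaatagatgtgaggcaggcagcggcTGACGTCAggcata
Tbp: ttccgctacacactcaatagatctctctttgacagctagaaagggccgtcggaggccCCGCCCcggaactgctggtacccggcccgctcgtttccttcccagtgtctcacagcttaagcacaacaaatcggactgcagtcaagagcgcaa
Sdha: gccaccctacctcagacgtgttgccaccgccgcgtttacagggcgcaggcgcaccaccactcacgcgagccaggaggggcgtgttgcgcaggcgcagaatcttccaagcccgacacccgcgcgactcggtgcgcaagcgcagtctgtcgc
B2m: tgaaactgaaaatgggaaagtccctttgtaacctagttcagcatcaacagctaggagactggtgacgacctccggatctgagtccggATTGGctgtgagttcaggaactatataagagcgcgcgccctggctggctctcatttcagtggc
Hprt held 3 GC boxes within 29 bases of its start and Tbp held 1 on the opposite strand from -83 to -78. Gusb held a cAMP response element that spans its start, from -4 to 4, and B2m a CCAAT box on the opposite strand from -53 to -49. The Sdha stretch held none of these 5 words. Over the full 300 bases of the table's entries, GC boxes were found in 35.7% of 32851 promoters, CCAAT in 37.4%, TATAAA in 13.6%, CACGTG in 7.15% and TGACGTCA in 1.79%. These shares cover more bases than the printed stretches. Outside the printed stretch, Sdha held the word CCAAT from -185 to -181 and B2m the word TATAAA from -152 to -147, both on the opposite strand. Only exact words were searched, so variants were left unmarked, such as tatataag in the printed B2m stretch. The search therefore does not show which promoters lack a TATA box. None of the 5 motifs was shared by Hprt and Gusb in the printed stretch. A match describes these letters and does not show that a factor was bound.

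The choice of reference gene set the size of a change measured against it. The study's quantitative PCR scaled Myc to Actb in cultures shorter than these and reported lower Myc mRNA at pH 6.6. No library here came from such shorter cultures, so the behaviour of Actb in that assay was not measured here. In the present libraries Myc gave 148, 164, 173, 142 and 174 CPM at pH 7.4 with IL-2 and 71.8, 45.9, 46.9, 55.6 and 53.9 CPM at pH 6.6 with IL-2. The groups did not overlap, and Myc was 2.92-fold lower in acid (log2 -1.55, adjusted p = 6.35e-14). Divided by Actb in the same library, the mean difference over the 5 replicates was 0.067 (SD 0.232, lowest -0.24, highest 0.41), and a two-sided exact sign-flip permutation test gave p = 0.5625. It turned to -0.019 without replicate 1. Divided by Gusb the difference was 0.12 (exact p = 0.3125) and by Hprt -0.20 (exact p = 0.1875). Divided by Ywhaz it was -0.92, by B2m -1.21, by Tbp -1.23 and by Sdha -1.29, with all 5 replicates lower and an exact permutation p of 0.0625 each, the smallest that 5 pairs allow. The geometric mean of Tbp and Sdha gave -1.26 and that of all 7 genes -0.67. The rise of Myc with IL-2 at pH 7.4 was 3.32 with TMM scaling, 3.15 against Tbp, 2.99 against Sdha and 1.12 against Actb, with all 5 replicates higher under each. Without IL-2, Myc rose at pH 6.6 (log2 0.69, adjusted p = 6.37e-06), although these groups overlapped. The difference there was 1.24 against Actb, 1.44 against Gusb and 0.82 against B2m, with all 5 replicates higher. It was 0.80 against Tbp, 0.60 against Sdha, 0.49 against Hprt and 0.48 against Ywhaz, with 4 of 5 replicates higher under each.

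**Figure D4:**
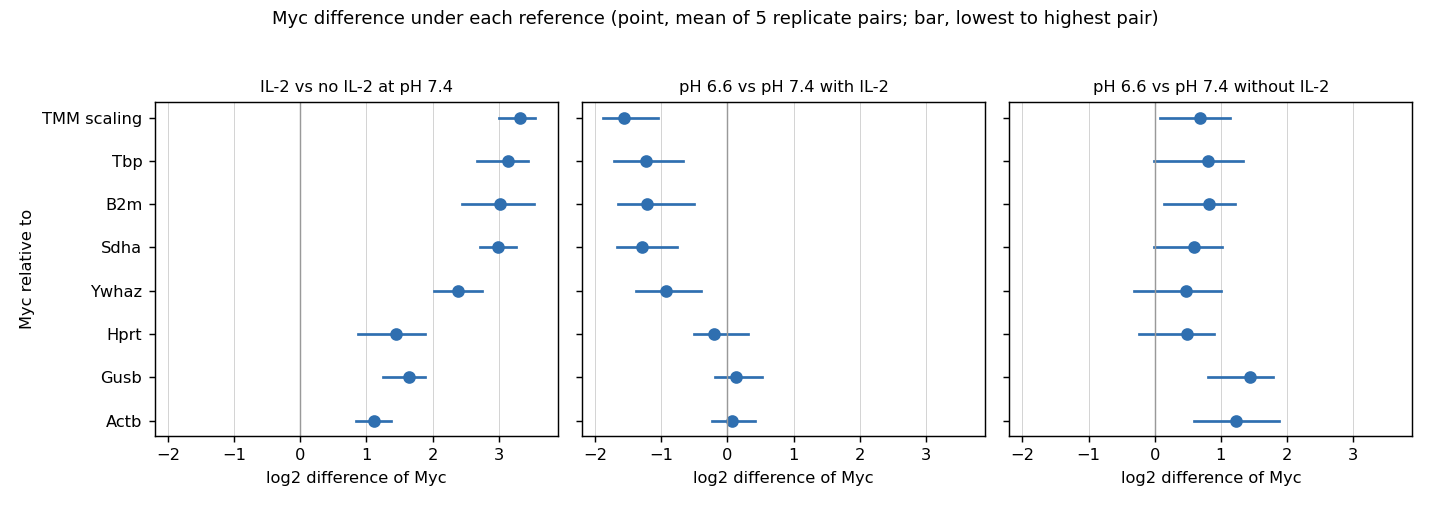
Difference of Myc in 3 comparisons on the log2 scale, expressed with TMM scaling or divided by each of the 7 genes in the same library; points are means of 5 replicate pairs and bars run from the lowest to the highest pair. For pH 6.6 against pH 7.4 with IL-2 the mean lies at -1.56 with TMM scaling and near 0 when Myc is divided by Actb (0.067) or Gusb (0.12).

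The same held for the transcriptome as a whole. Dividing every gene by a member put 91.9% of the 13819 genes higher in acid (pH 6.6, with IL-2) when Actb was used, 92.4% with Gusb, 88.0% with Hprt, 70.8% with Ywhaz, 61.2% with B2m, 60.1% with Tbp and 58.2% with Sdha, against 47.5% with TMM scaling. With IL-2 at pH 7.4 the share of genes higher than without IL-2 was 6.51% with Actb, 8.53% with Hprt, 10.2% with Gusb and 43.0% with Tbp, against 48.5% with TMM scaling. These shares follow from the fold change of the member itself and hold no test.

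The gene families of the 7 members did not all move with them. Of all genes tested, 35.4% passed as higher and 40.9% as lower at pH 6.6 with IL-2, and 39.3% as higher and 41.1% as lower with IL-2 at pH 7.4. Among actins only Actg1 was tested besides Actb, and its log2 fold change was -0.34 at pH 6.6 with IL-2, which passed, against -1.62 for Actb. Only 62.6% of the 50-base windows of Actg1 occurred in no other gene, against 90.9% for Actb. The value of Actg1 therefore rests on fewer placeable reads. All 5 tested enzymes of purine salvage beside Hprt fell, with Ada (-2.14) and Adk (-1.94) lowest and Aprt (-0.54) and Prps2 (-0.24) least, and all 5 rose with IL-2 at pH 7.4. Of 14 other lysosomal glycosidases, 7 rose and 5 fell at pH 6.6 with IL-2, and 1 rose and 9 fell with IL-2 at pH 7.4. Neu1 (0.76) rose at pH 6.6 with IL-2, and Naglu (-0.82) and Gla (-0.61) fell. Of 7 genes of succinate dehydrogenase and its assembly factors, 5 fell and none rose, and the iron-sulfur subunit Sdhb (-1.13) and the assembly factor Sdhaf4 (-1.10) fell further than Sdha, while the values were -0.11 for Sdhd and 0.15 for Sdhaf1, which did not pass. Of 13 genes of MHC class I presentation, 3 rose and 9 fell. The heavy chains H2-K1 (0.68) and H2-D1 (0.63) rose while their partner B2m fell (-0.35), and the endoplasmic reticulum chaperones Calr (-1.58) and Pdia3 (-1.25) fell. Of 6 other 14-3-3 genes, 5 fell, from Ywhab (-1.89) and Ywhag (-1.08) to Ywhaq (-0.75), and Sfn did not pass (-0.19). Of 13 TFIID subunits, which assemble with Tbp, 2 rose and 8 fell, with Taf8 (1.05) and Taf4 (0.27) highest and Taf12 (-1.07) and Taf13 (-0.81) lowest. Median log2 fold changes of these lists at pH 6.6 with IL-2 were -1.33 for purine salvage, -0.96 for 14-3-3 genes, -0.55 for TFIID, -0.45 for succinate dehydrogenase, -0.28 for MHC class I presentation and 0.097 for lysosomal glycosidases, against -0.067 for all genes tested.

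Some members share sequence with other genes, which limits how well their reads can be placed. In the GENCODE M21 annotation of GRCm38, Actb (ENSMUSG00000029580) lies at chr5:142903115-142906754 on the minus strand, and 90.9% of the 50-base windows of its exons occurred in no other gene. For Tbp (ENSMUSG00000014767, chr17:15499888-15528379, plus strand) this share was 83.7%, with 15.8% shared with Pdcd2, which runs on the opposite strand and overlaps 19.02% of its exon bases. For Ywhaz (ENSMUSG00000022285, chr15:36770770-36796929, minus strand) it was 84.8%, with 15.1% shared with the processed pseudogene Gm4202. Sdha (ENSMUSG00000021577, chr13:74322254-74350280, minus strand), B2m (ENSMUSG00000060802, chr2:122147686-122153083, plus strand), Hprt (ENSMUSG00000025630, chrX:52988137-53021659, plus strand) and Gusb (ENSMUSG00000025534, chr5:129989011-130003049, minus strand) were at 100%. Reads that aligned to several places were not counted, and the strand setting of the counting was not given in the sources used here, so reads of Tbp and Pdcd2 from their overlap may not be told apart.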

How the data were processed

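RNA was taken from OT-I CTLs of 5 biological replicates in 7 conditions and sequenced as single reads from stranded mRNA libraries. The deposited values are raw read counts per gene, one table per library, made by the authors from reads aligned to GRCm38 (per the submitters' processing notes cutadapt 1.8, STAR 2.5.2b and HTSeq 0.6.1). The annotation release and the strand setting of the counting were not given in the sources used here. Lines for reads assigned to no gene were left out of totals and tests (outside genes 2.58 to 11.1% of a library, aligned to several places 32.8 to 48.3%, in several genes 0.871 to 0.997%).

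Genes were kept by edgeR's filterByExpr with a minimum count of 10 (13819 genes), scaled by TMM and tested by edgeR's quasi-likelihood test (edgeR 4.0.16, R 4.3.3) on all 35 libraries, with the replicate as a block and Benjamini-Hochberg adjustment over all genes tested, threshold 0.05. The 5 replicates were cultured in every condition, which pairs the libraries: of 105 pairs of libraries with the same number, 96 had deviations from the group means that correlated above 0.1 (median 0.247), against 36 of 420 pairs with different numbers. No 2 libraries of a group agreed within sampling noise. The code was tested on simulated counts. Alternatives were RLE size factors, library totals, looser and stricter filters, no block, DESeq2 1.42.0, other prior counts, only the groups compared, and each replicate left out. Described were the 7 members, Myc, the 2 highest and 2 lowest genes of each list, the 3 genes most like each member and the 10 with the lowest SD. The members and lists were chosen with earlier results of these data known. Gapdh was not analysed here, and some genes that this rule names are not reported here. Of the members, Gusb and Tbp had the lowest counts, and the part of depth in the precision of their values was not tested.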

Additional observations from a re-analysis of the deposited data

Results flagged for a closer look

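In 2 of 49 groups of 5 libraries 1 library stood apart from the other 4 by Dixon's criterion, which chance meets in about 1 in 20 groups. Both were at pH 7.4 with IL-2. Sdha in replicate 2 had a log2 CPM of 8.38, against 8.22 to 8.26 in the others, and Gusb in replicate 1 had 6.26, against 6.37 to 6.38.

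The effect of pH 6.6 differed between cultures with and without IL-2 by the interaction test for Hprt (-1.54), Actb (-1.06), Gusb (-0.92), Ywhaz (-0.85) and Sdha (-0.36), on the log2 scale.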

How the results depend on the processing

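No alternative changed a call of Actb. With library totals as the scale, no member passed between pH 7 and pH 7.4 with IL-2 (0 in place of 1) and 3 in place of 5 passed between pH 7.4 with IL-2 and 0 h. With only the groups compared in the fit these counts were 3 and 3, and 1 in place of 0 passed between pH 7 and pH 7.4 without IL-2 (B2m, -0.19). RLE size factors and DESeq2 gave 5 in place of 3 for pH 6.6 without IL-2. Leaving out each replicate gave 0 to 1 for pH 7 with IL-2 (0 without replicate 2, 3 or 4) and 3 to 5 for pH 7.4 with IL-2 against 0 h (3 without replicate 1 or 2). Myc relative to Actb at pH 6.6 with IL-2 ran from -0.019 (without replicate 1) to 0.14. The replicate block came from the shared cultures, and without it the member counts stayed at 7, 1, 3, 0, 6, 6, 3, 5, 5 and 6 in the 10 comparisons.

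Estimates near 0 changed sign. With library totals these were Sdha at pH 7 with IL-2 (0.037), at pH 6.6 without IL-2 (-0.060) and for IL-2 at pH 6.6 (0.034), Hprt at pH 7 without IL-2 (0.011), Tbp for IL-2 at pH 6.6 (0.025) and in the interaction (0.018), and B2m in the interaction (0.018) and for pH 7.4 with IL-2 against 0 h (-0.021). With only the groups compared, Sdha was 0.0085 at pH 7 with IL-2 and 0.0020 for IL-2 at pH 6.6. Leaving out each replicate gave ranges of -0.0059 to 0.016 for Sdha and -0.056 to 0.053 for Hprt at pH 7 without IL-2, -0.094 to 0.016 for Tbp and -0.047 to 0.0093 for Sdha with IL-2 at pH 6.6, and -0.072 to 0.16 for B2m with IL-2 at pH 7.4 against 0 h. Library totals moved the median of all genes by -0.158 for IL-2 at pH 7.4, -0.118 for IL-2 at pH 7 and -0.153 for pH 6.6 without IL-2, and moved the share of calls that were higher from 55.5 to 74.6% for IL-2 at pH 6.6, 51.1 to 62.8% for the interaction, 47.2 to 34.7% for pH 6.6 without IL-2 and 48.2 to 65.7% for pH 7 with IL-2. The cause was not tested.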
